A study of Mus musculus with 8 samples.

Results

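The unfolded protein and integrated stress response genes described here are 38 named mouse genes, chosen by symbol from a deposited table of 24015 gene symbols. They fall into 16 chaperones and folding enzymes of the endoplasmic reticulum (ER), 3 stress sensors with the transcription factor Xbp1, 7 genes of ER-associated degradation, and 11 genes of the arm governed by the transcription factor Atf4. All 38 had a row in the table, and all 38 were among the 13527 genes with enough reads to test. Derl3 passed that filter through its day 14 and day 21 libraries, with 5 reads at day 0.

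The RNA came from fibroblasts of the heart, its connective tissue cells, taken from C57BL/6J mice of wild-type genotype at 8 weeks of age and put into osteogenic differentiation medium. The 4 harvest times were day 0, which preceded the medium, and days 7, 14 and 21 of culture in it, and each had 2 libraries. No harvest came from cells kept for the same days without the medium, so time in culture and the medium cannot be told apart. Whether libraries of the same day had separate mice or dishes as their source is not given in the labels, so a p-value here reflects the spread between libraries, which may be technical. Each library held 13399313 to 21883498 reads in genes. The libraries of days 0 and 7 lay closer together than those of days 14 and 21: the median ratio of the higher to the lower library over the stress genes was 1.06 at day 0, 1.03 at day 7, 1.13 at day 14 and 1.11 at day 21. All 12 fibroblast markers examined were expressed, with a lower summed share of all counts at days 7, 14 and 21 than at day 0. Of 10 osteoblast markers examined, Sp7 and Ibsp had 0 reads in all 8 libraries. The summed level of the 10, mostly Spp1, was higher at days 7, 14 and 21 than at day 0.

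Secreted and membrane proteins fold in the ER, where chaperones such as BiP (Hspa5) hold unfolded chains and protein disulfide isomerases form their disulfide bonds. When unfolded protein builds up, 3 membrane sensors respond: IRE1α (Ern1) splices the Xbp1 mRNA, ATF6 is cut to release a transcription factor, and PERK (Eif2ak3) phosphorylates the translation factor eIF2α. Phosphorylated eIF2α slows protein synthesis while favouring translation of ATF4, which activates genes of amino acid supply and, through CHOP (Ddit3), of feedback and cell death. The same eIF2α switch is also thrown by other kinases, for example when amino acids are short. Whichever kinase throws it, the response is called the integrated stress response. Fibroblasts that make collagen carry a heavy load of secretory protein and a large ER folding capacity. The measurements here are mRNA levels only. They do not show Xbp1 splicing, ATF6 cleavage or eIF2α phosphorylation.

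Many of these genes are textbook targets of the same factors, so matches to those factors' known motifs are shown before the values. Windows from 250 bases before to 50 bases after each annotated start, from RefSeq on GRCm38.p6, were matched to 34 of the 38 genes by symbol (Ero1l under its newer symbol Ero1a), and both strands were searched. The ER stress element ERSE, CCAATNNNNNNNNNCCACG, the known binding arrangement for NF-Y with ATF6 or XBP1, was found in 9 of the 34 (26.5%), against 0.137% of all 27025 genes with a window. These 9 genes were Hspa5, Hsp90b1, Calr, Canx, Pdia6, Dnajc3, Creld2, Syvn1 and Derl3. ERSE-II, ATTGGNCCACG, was found for Dnajb11 and Herpud1, that is 5.88% of the 34, against 0.0444% of all genes with a window. Another element, UPRE, searched as TGACGTGG, was found in 0 of the 34 and in 0.714% of all genes with a window. The C/EBP-ATF element, TGATGNAA, which ATF4 is known to bind, was found in 5 of the 34 (14.7%), against 4.51% of all genes with a window, in Herpud1, Chac1, Trib3, Asns and Vldlr. The 3 ER stress motifs share the bases CCACG or their complement, but no matches overlapped in these 34 genes. The matches of the 9 ERSE genes and of the 5 genes with a C/EBP-ATF match follow, each 5′ to 3′ on the strand of its gene. Each has 10 bases on either side, with the matched bases in capitals.
Hspa5 (chr2:34772015-34772053, plus strand, ERSE): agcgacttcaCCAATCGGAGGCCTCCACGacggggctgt
Calr (chr8:84847065-84847103, minus strand, ERSE reversed): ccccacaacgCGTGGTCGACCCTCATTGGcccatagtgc
Canx (chr11:50325790-50325828, minus strand, ERSE): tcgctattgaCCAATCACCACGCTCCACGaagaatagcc
Pdia6 (chr12:17266481-17266519, plus strand, ERSE): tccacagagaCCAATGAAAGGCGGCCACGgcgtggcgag
Dnajc3 (chr14:118937817-118937855, plus strand, ERSE): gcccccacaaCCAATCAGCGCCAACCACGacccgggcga
Creld2 (chr15:88819510-88819548, plus strand, ERSE reversed): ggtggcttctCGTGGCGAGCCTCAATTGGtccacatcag
Syvn1 (chr19:6046522-6046560, plus strand, ERSE): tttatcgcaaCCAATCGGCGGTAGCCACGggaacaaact
Derl3 (chr10:75893232-75893270, plus strand, ERSE reversed): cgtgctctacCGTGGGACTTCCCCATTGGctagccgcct
Hsp90b1 (chr10:86705523-86705666, minus strand, ERSE and ERSE reversed): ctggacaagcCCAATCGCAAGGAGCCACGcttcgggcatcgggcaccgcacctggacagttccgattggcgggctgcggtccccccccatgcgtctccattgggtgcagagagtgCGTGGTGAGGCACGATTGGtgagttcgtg
Herpud1 (chr8:94386307-94386397, plus strand, C/EBP-ATF element reversed, then ERSE-II): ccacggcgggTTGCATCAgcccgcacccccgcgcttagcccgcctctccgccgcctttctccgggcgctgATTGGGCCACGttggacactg
Chac1 (chr2:119351039-119351066, plus strand, C/EBP-ATF element reversed): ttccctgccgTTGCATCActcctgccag
Trib3 (chr2:152344029-152344056, minus strand, C/EBP-ATF element reversed): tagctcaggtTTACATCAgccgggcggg
Asns (chr6:7693215-7693242, minus strand, C/EBP-ATF element): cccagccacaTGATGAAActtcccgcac
Vldlr (chr19:27216810-27216837, plus strand, C/EBP-ATF element reversed): gcagcaatagTTGCATCAgcgctcctag

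Hsp90b1 carried 2 ERSE matches in opposite orientations, and Herpud1 carried both an ERSE-II and a C/EBP-ATF match. The ERSE matches lay between 212 and 26 bases before the start. A match of letters is not a measurement of binding, and windows for Atf6, Hyou1, Derl1 and Manf were not analysed here.

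**Figure D1:**
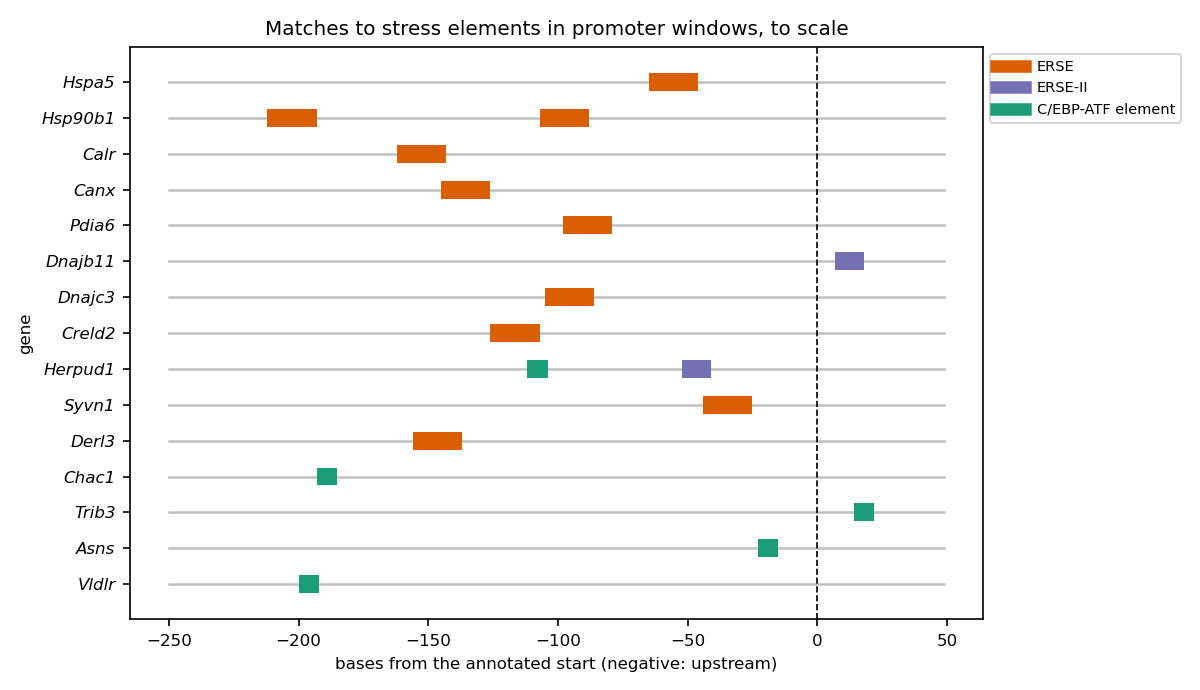
Positions of motif matches in the promoter windows of 15 stress response genes, drawn to scale. The horizontal axis gives bases from the annotated start, negative upstream, each grey line is the window of 1 gene, and coloured blocks are matches to ERSE, ERSE-II and the C/EBP-ATF element. The 10 ERSE matches in 9 genes all lie upstream of the start.

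Values are normalized counts, reads divided by 1 size factor per library, and differences are on the log2(normalized count + 1) scale with standard errors from limma over all 8 libraries. A gene is called higher or lower when its p-value, adjusted by the Benjamini-Hochberg method over 13527 genes, was below 0.05. Between day 7 and day 0, 23 of the 38 stress genes were called lower and 6 higher. Of all genes tested, 27.9% were called lower and 27.5% higher, together 55.4%. The median difference was log2 -0.48 over the 38 genes and -0.01 over all genes tested. The 23 lower calls included 13 of the 16 ER chaperones and 7 of the 11 genes of the Atf4 arm. In bulk RNA, fewer cells of a type and less RNA per cell cannot be told apart.

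At day 14 against day 7 the genes moved apart, with 10 called higher and 15 lower, when 25.0% of all genes tested were called higher and 27.0% lower, together 52.0%. The median difference was log2 0.03 over the 38 genes and -0.00 over all genes tested. Between day 21 and day 14, 19 were called higher and 2 lower, when 20.2% of all genes were called higher and 14.3% lower, together 34.5%, with a median of log2 0.29 against 0.02 over all genes. Compared with day 7, 15 were called higher and 0 lower by limma over all libraries on day 21, when 5.46% of all genes were called higher and 3.28% lower, together 8.74%, with a median of log2 0.24 against 0.01 over all genes. At an unadjusted p under 0.05, 2 of the 38 were lower in that comparison, Ero1l and Trib3, and edgeR and DESeq2 each called 0 lower. By limma, Ern1 was called lower there in a fit of only the times compared, and Trib3 once a trend of the differences with transcript length and GC content, fitted over all genes, was removed. Compared with day 0, 7 were called higher and 16 lower on day 21, when 29.8% of all genes were called higher and 29.5% lower, together 59.4%, with a median of log2 -0.13 against 0.00 over all genes. The 5 comparisons share libraries, so their counts are not independent of one another. Counts for roles and other lists below are read against these shares of all genes in the same comparison.

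Some of these counts rested on single libraries. Without replicate 1 of day 0, replicate 2 of day 0, replicate 1 of day 7 or replicate 2 of day 7, the 6 higher calls at day 7 against day 0 became 3, 2, 2 and 2, while the lower calls stayed at 20 or more. Without replicate 2 of day 7 the 15 lower calls at day 14 against day 7 became 8, and without replicate 2 of day 14 the 19 higher calls at day 21 against day 14 became 12 and the 2 lower calls 0. Without replicate 2 of day 21 the 2 lower calls at day 21 against day 14 became 1. The 15 higher calls at day 21 against day 7 became 4 without replicate 1 of day 7, 3 without replicate 2 of day 7 and 8 without replicate 1 of day 21. The calls over all genes in that comparison moved with them, being 1182 with all libraries and 262, 299 and 521 in the same order. Without replicate 2 of day 0 the 7 higher calls at day 21 against day 0 became 3.

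**Figure D2:**
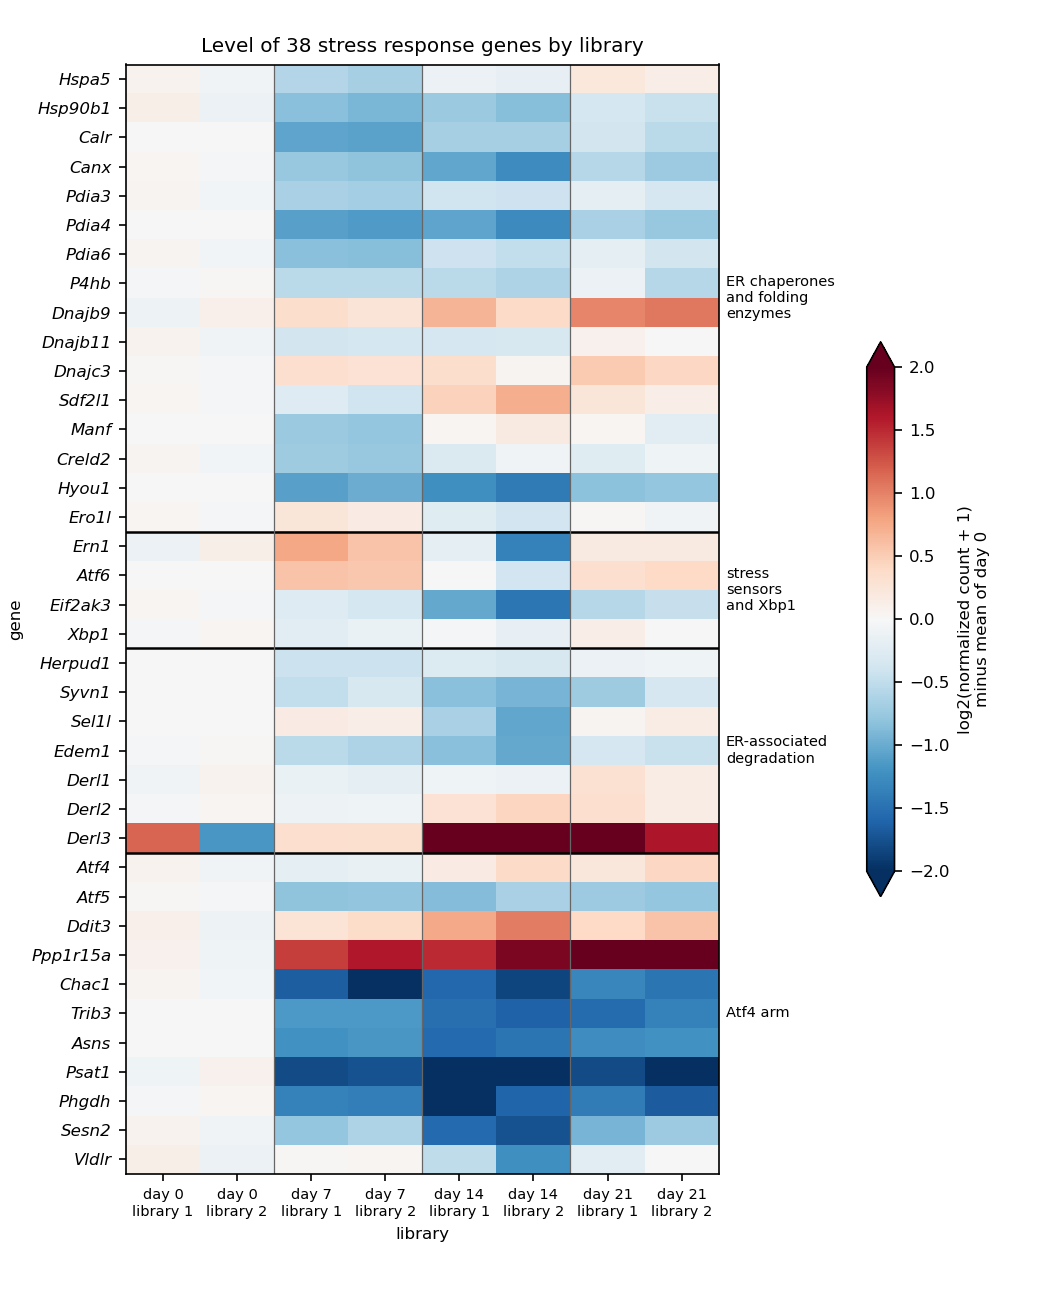
Heat map of the 38 genes (rows, grouped by role) in the 8 libraries (columns), coloured by log2(normalized count + 1) minus the mean of the 2 day 0 libraries, with the colour scale ending at 2 in either direction. Most chaperone rows are blue at day 7 and paler at day 21, while Psat1, Phgdh, Asns, Trib3 and Chac1 stay blue and Ppp1r15a is red from day 7.

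The summed level of the 38 genes was 1.57% ± 0.0426 of all normalized counts at day 0, 0.959% ± 0.0219 at day 7, 1.08% ± 0.0159 at day 14 and 1.23% ± 0.0814 at day 21 (SD, n = 2 each). The chaperones made up most of it, with 1.27%, 0.747%, 0.869% and 0.965% at days 0, 7, 14 and 21. Per kilobase of transcript, averaged over the 4 times, the lectin chaperone Calr stood highest among the 38 genes at 16549 normalized counts, followed by the disulfide isomerases P4hb at 13062 and Pdia3 at 7668. Vldlr at 20.5 and Derl3 at 5.58 stood lowest. Of the 38 genes, 20 had their highest mean at day 0 and 8 at day 21, and 17 had their lowest mean at day 7, 17 at day 14 and 0 at day 21.

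Most ER chaperones and folding enzymes fell in the first week. Between day 7 and day 0, 13 of 16 were called lower, 2, Dnajb9 and Dnajc3, were called higher and Ero1l was not called, with a median of log2 -0.70, and the lower calls numbered 11 to 13 under every alternative tried. Hspa5 encodes BiP, the main Hsp70 chaperone of the ER and the usual reporter of ER stress. It had 23166 and 20788 normalized counts on day 0, 14560.1 and 13776 on day 7, 20169.8 and 19619.8 on day 14 and 25396 and 24155 on day 21. The day 7 libraries were its lowest pair and the day 21 pair its highest. Its difference was log2 -0.63 ± 0.10, adjusted p = 0.000264 at day 7 against day 0, 0.49 ± 0.10 (adjusted p = 0.00215) at day 14 against day 7 and 0.81 ± 0.10 (adjusted p = 0.000669) at day 21 against day 7. Relative to day 0 it was not called on day 21 (log2 0.17 ± 0.10, adjusted p = 0.17). Both day 21 libraries lay above both day 0 libraries, but with 2 libraries a time that order is no test of a difference.

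Calreticulin (Calr), which holds glycoproteins through their sugars, had 50527 and 51171 normalized counts on day 0, 24459 and 24198 on day 7, 32093 and 32218 on day 14 and 39369 and 35102 on day 21. Its level at day 7 was 0.478 times that of day 0 (log2 -1.06 ± 0.11, adjusted p = 5.91e-06), and at day 21 it was still below day 0 (log2 -0.45 ± 0.11, adjusted p = 0.00391). The membrane-bound partner calnexin (Canx) had 13472 and 12687 normalized counts on day 0, 7749 and 7508 on day 7, 6372 and 5480.3 on day 14 and 8774 and 7903 on day 21. Unlike Calr it was called lower also at day 14 against day 7 (-0.37 ± 0.10, adjusted p = 0.011), and then higher at day 21 against day 14 (0.49 ± 0.10, adjusted p = 0.00456). The day 14 call of Calr (log2 0.40 ± 0.11, adjusted p = 0.00974) was lost without either day 7 library (adjusted p = 0.0704 and 0.0808) and with the length and GC trend removed (log2 0.11, adjusted p = 0.4). That of Canx was lost without replicate 2 of day 14 or either day 7 library (adjusted p = 0.0583 to 0.0872).

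The disulfide isomerase Pdia4 had 7139 and 7203 normalized counts on day 0, 3371 and 3266 on day 7, 3459 and 2963 on day 14 and 4597 and 4257 on day 21. Its fall at day 7 (log2 -1.11 ± 0.10, adjusted p = 1.32e-06) was the largest among the chaperones, and both day 21 libraries remained below both day 0 libraries (log2 -0.70 ± 0.10, adjusted p = 6.15e-05). Hyou1, the large Hsp110-type partner of BiP, had 4983 and 4928 normalized counts on day 0, 2334 and 2483 on day 7, 2121 and 1868 on day 14 and 2791 and 2883 on day 21. It was 0.486 times its day 0 level at day 7 (log2 -1.04 ± 0.09, adjusted p = 1.51e-06) and rose between day 14 and day 21 (log2 0.51 ± 0.09, adjusted p = 0.00229) without regaining day 0 (log2 -0.80 ± 0.09, adjusted p = 1.15e-05).

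Sdf2l1 and Manf are small soluble ER proteins, known as early targets of the unfolded protein response. Sdf2l1 had 583 and 552 normalized counts on day 0, 475 and 428 on day 7, 784 and 936 on day 14 and 673 and 624 on day 21. Manf had 4009 and 4020.3 normalized counts on day 0, 2406 and 2353 on day 7, 4119 and 4555 on day 14 and 4127 and 3486 on day 21. Both stood highest at day 14, above every library of day 7, with differences at day 14 against day 7 of log2 0.92 ± 0.12 for Sdf2l1 (adjusted p = 8.40e-05) and 0.86 ± 0.10 for Manf (adjusted p = 6.07e-05). With the trend on length and GC content removed, the calls were kept but the differences were smaller, at log2 0.40, adjusted p = 0.0063 for Sdf2l1 and log2 0.60, adjusted p = 0.000273 for Manf. Earlier, Manf fell at day 7 against day 0 (log2 -0.75 ± 0.10, adjusted p = 4.87e-05), and Sdf2l1 fell by less (log2 -0.33 ± 0.12, adjusted p = 0.0284), a call lost without any one of the 4 libraries compared (adjusted p = 0.0543 to 0.202). Sdf2l1 was also the 1 chaperone called lower at day 21 against day 14 (log2 -0.40 ± 0.12, adjusted p = 0.0193), a call lost without replicate 2 of day 14 or of day 21 (adjusted p = 0.129 and 0.106). It was also lost with the length and GC trend removed (log2 -0.09, adjusted p = 0.525).

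Dnajb9 and Dnajc3, J-domain partners of BiP that are made under ER stress, were the 2 chaperones called higher at day 7 against day 0. Dnajb9 (ERdj4) had 494 and 565 normalized counts on day 0, 673 and 633 on day 7, 845 and 688 on day 14 and 1044 and 1093 on day 21. Both day 21 libraries were above every earlier library, and the level was 2.02 times that of day 0 (log2 1.01 ± 0.12, adjusted p = 1.25e-05). Dnajc3 (P58IPK, an inhibitor of PERK) had 3469 and 3381 normalized counts on day 0, 4311 and 4207 on day 7, 4362 and 3552 on day 14 and 4933 and 4572 on day 21, and was also higher at day 21 than at day 0 (log2 0.47 ± 0.11, adjusted p = 0.0021). Their rises at day 7 against day 0 were smaller, at log2 0.31 ± 0.12 for Dnajb9 (adjusted p = 0.0452) and 0.31 ± 0.11 for Dnajc3 (adjusted p = 0.0238). Both were lost without any one of the 4 libraries compared, with adjusted p up to 0.287 for Dnajb9 and 0.129 for Dnajc3. Dnajc3 carries an ERSE match, printed above, and Dnajb9 carries none of the motifs searched in its window.

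Ero1l, the oxidase that recharges the disulfide isomerases, had 1328 and 1246 normalized counts on day 0, 1529 and 1449 on day 7, 1089.7 and 988 on day 14 and 1303 and 1224 on day 21. It was the 1 chaperone-group gene not called at day 7 against day 0 (log2 0.21 ± 0.10, adjusted p = 0.0819), and it fell at day 14 against day 7 (log2 -0.52 ± 0.10, adjusted p = 0.000868). The remaining chaperones, Hsp90b1, Pdia3, Pdia6, P4hb, Dnajb11 and Creld2, were all called lower at day 7 against day 0, by log2 -0.36 (Dnajb11) to -0.88 (Hsp90b1). Between day 14 and day 7, 6 of the 16 were called higher and 3 lower, and the 3 lower calls became 1 without replicate 2 of day 14 or either day 7 library. The next step, day 21 against day 14, had 8 higher calls and 1 lower, and the 8 became 4 without replicate 2 of day 14 and 5 without replicate 1 of day 21.

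Compared with day 7, 11 of 16 chaperones were called higher and 0 lower by limma on day 21, with a median of log2 0.45; Ero1l alone was lower at an unadjusted p under 0.05, and edgeR and DESeq2 called 0 lower. Hspa5, Dnajb9 (log2 0.71 ± 0.12) and Manf (log2 0.67 ± 0.10) led them. Of all genes tested, 5.46% were called higher and 3.28% lower at day 21 against day 7, and 29.8% and 29.5% at day 21 against day 0. The 11 calls became 3 without replicate 1 of day 7, 2 without replicate 2 of day 7 and 6 without replicate 1 of day 21. The calls of Hspa5 and Manf were kept without any single library, and that of Dnajb9 was lost without replicate 2 of day 7 (adjusted p = 0.0602). Compared with day 0, 6 were called lower and 2 higher on day 21, with a median of log2 -0.21, and the lower calls became 4 without replicate 1 of day 0. Hsp90b1 (log2 -0.40 ± 0.11, adjusted p = 0.00887) and Pdia6 (log2 -0.28 ± 0.10, adjusted p = 0.0235) were the 2 chaperones whose lower calls were lost there (adjusted p = 0.122 for Hsp90b1 and 0.158 for Pdia6).

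Of the 9 genes with an ERSE match, 7 were called lower and 1 higher at day 7 against day 0, with a median of log2 -0.73. Of the 23 genes whose windows held neither ERSE nor ERSE-II, 12 were called lower and 4 higher, with a median of log2 -0.33. On day 21 compared with day 7, 5 of the 9 were called higher, with a median of log2 0.56, and 6 of the 23 were called higher, with a median of log2 0.17. These counts describe overlapping roles, since 7 of the 9 are chaperones, and the difference between the sets was not tested. Of all genes tested, 27.9% were called lower and 27.5% higher at day 7 against day 0, and 5.46% higher at day 21 against day 7.

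The sensors and Xbp1 come next. Of the 4 genes in this role, 2 were called higher and 0 lower at day 7 against day 0 by limma over all libraries, by edgeR and by DESeq2, with Eif2ak3 lower at an unadjusted p under 0.05 (log2 -0.31 ± 0.13, adjusted p = 0.0688). Eif2ak3 and Xbp1 were called lower there by limma in the fit of only the times compared and with the length and GC trend removed. The same 3 genes that encode the sensors were called lower at day 14 against day 7 and higher at day 21 against day 14. Ern1, which encodes IRE1α, had 245 and 289 normalized counts on day 0, 457 and 397 on day 7, 232 and 104 on day 14 and 301 and 301 on day 21. The 2 day 14 libraries differed by a factor of 2.23, the widest replicate gap among the 38 genes at that time, yet both were below both day 7 libraries (log2 -1.45 ± 0.27, adjusted p = 0.00087). Its rise at day 7 against day 0 (log2 0.68 ± 0.27, adjusted p = 0.048) was lost without any one library of days 0, 7 or 21 (adjusted p = 0.0681 to 0.221).

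Atf6 had 1143 and 1154 normalized counts on day 0, 1713 and 1664 on day 7, 1149 and 882 on day 14 and 1444 and 1508 on day 21. Both day 7 libraries were above all others, and the rise was log2 0.55 ± 0.12 at day 7 against day 0 (adjusted p = 0.00151). It fell at day 14 against day 7 (log2 -0.75 ± 0.12, adjusted p = 0.000308). The fall was smaller with the length and GC trend removed (log2 -0.29, adjusted p = 0.00814). Eif2ak3, which encodes PERK, had 813 and 775 normalized counts on day 0, 667 and 619 on day 7, 389.9 and 292 on day 14 and 535 and 577 on day 21. Its lowest libraries were those of day 14, at 0.526 times day 7 (log2 -0.93 ± 0.13, adjusted p = 0.000181), and at day 21 it was below day 0 (log2 -0.51 ± 0.13, adjusted p = 0.00513).

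All 3 sensors rose at day 21 against day 14, by log2 0.95 ± 0.27 for Ern1 (adjusted p = 0.0175), 0.55 ± 0.12 for Atf6 (adjusted p = 0.00459) and 0.72 ± 0.13 for Eif2ak3 (adjusted p = 0.00241). The call of Ern1 was lost without replicate 2 of day 14 or either day 21 library (adjusted p = 0.0645 to 0.0979). Those of Ern1 and Atf6 were lost with the length and GC trend removed (log2 0.58, adjusted p = 0.0917 for Ern1 and log2 0.21, adjusted p = 0.0514 for Atf6). Atf6 was still higher at day 21 than at day 0 (log2 0.36 ± 0.12, adjusted p = 0.0181), a call lost without either day 0 library or replicate 2 of day 21 (adjusted p = 0.0759 to 0.0873). Xbp1, whose mRNA is the substrate of IRE1α, was not called in any of the 5 comparisons by limma over all libraries, with 3121 and 3272 normalized counts on day 0, 2766 and 2921 on day 7, 3159.7 and 2865 on day 14 and 3514 and 3228 on day 21. With the length and GC trend removed it was called lower at day 7 against day 0 (log2 -0.26, adjusted p = 0.0275) and higher at day 21 against day 14 (log2 0.31, adjusted p = 0.0279). Its mean changed by at most a factor of 1.19 between any times. Total Xbp1 reads do not distinguish the spliced from the unspliced form.

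ER-associated degradation returns misfolded proteins to the cytosol for the proteasome. Of its 7 genes, 3 were called lower at day 7 against day 0 and 0 higher, by limma over all libraries, edgeR and DESeq2, and 0 were higher at an unadjusted p under 0.05. The fit of only the times compared called Sel1l higher there (log2 0.15, adjusted p = 0.0321). At day 14 against day 7, 2 were called higher (28.6%), Derl2 and Derl3, and 3 lower (42.9%), when 25.0% and 27.0% of all genes were. Sel1l, the scaffold of the ubiquitin ligase complex, had 3245 and 3229 normalized counts on day 0, 3616 and 3554 on day 7, 2068 and 1568 on day 14 and 3372 and 3605 on day 21. Its day 14 libraries stood alone below the other 6, with a fall at day 14 (log2 -0.99 ± 0.12, adjusted p = 6.35e-05) and a rise at day 21 against day 14 of nearly the same size (log2 0.95 ± 0.12, adjusted p = 0.000277). Syvn1, the ligase itself (HRD1), had 1335 and 1339 normalized counts on day 0, 955 and 1068 on day 7, 753 and 704 on day 14 and 817 and 1064 on day 21. It was lower at day 21 than at day 0 (log2 -0.52 ± 0.12, adjusted p = 0.00308).

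The mannosidase-like Edem1, which marks misfolded glycoproteins for removal, had 2816 and 2918 normalized counts on day 0, 1963 and 1877 on day 7, 1602 and 1417 on day 14 and 2260.0 and 2107 on day 21. It fell at day 7 (log2 -0.58 ± 0.10, adjusted p = 0.000244) and rose at day 21 against day 14 (log2 0.53 ± 0.10, adjusted p = 0.00199). Herpud1, an adaptor of the ligase complex, had 1895 and 1889 normalized counts on day 0, 1400.1 and 1410.4 on day 7, 1571 and 1511 on day 14 and 1737 and 1784 on day 21. It was called lower at day 7 against day 0 (log2 -0.43 ± 0.09, adjusted p = 0.00108) and its day 21 libraries lay between those of day 7 and day 0. Its call at day 21 against day 7 (log2 0.32 ± 0.09, adjusted p = 0.0369) was lost in 6 of the 8 fits that leave out 1 library (adjusted p up to 0.252). It was also lost with the length and GC trend removed (log2 0.18, adjusted p = 0.179).

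The derlins form the channel through which degradation substrates leave the ER. Derl1 had 3715 and 4124 normalized counts on day 0, 3563 and 3444 on day 7, 3692 and 3599.7 on day 14 and 4820.2 and 4325 on day 21. Derl2 had 1041 and 1110.0 normalized counts on day 0, 1001 and 1015 on day 7, 1313 and 1450.4 on day 14 and 1361 and 1197 on day 21. Derl2 rose at day 14 against day 7 (log2 0.45 ± 0.10, adjusted p = 0.00278), whereas Derl1 was called higher at day 21 against day 14 (log2 0.32 ± 0.10, adjusted p = 0.0209), a call lost without replicate 2 of day 14 or replicate 1 of day 21 (adjusted p = 0.0628 and 0.0922). Derl3, the most cell-type-restricted of the 3, was near the detection limit, with 3.98 and 0 normalized counts on day 0, 1.82 and 1.78 on day 7, 16.4 and 16.4 on day 14 and 12.8 and 5.84 on day 21. Both day 14 libraries exceeded all libraries of days 0 and 7, by log2 2.63 ± 0.72, adjusted p = 0.00869 over day 7, on fewer than 20 normalized counts per library. The filter admitted Derl3 through its day 14 and day 21 libraries, so the p-values for its rise at those times are no independent support. Its call at day 21 against day 0 (log2 2.12 ± 0.72, adjusted p = 0.0221) was lost without replicate 2 of day 0 or replicate 1 of day 21 (adjusted p = 0.224 and 0.153).

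In the Atf4 arm the genes of serine and asparagine synthesis fell by day 7 and were below day 0 at day 21, while the feedback gene Ppp1r15a rose. Of its 11 genes, 7 were called lower and 2 higher at day 7 against day 0, with a median of log2 -0.80, and at day 21 against day 0, 7 were called lower and 3 higher, with a median of log2 -0.83. The 7 lower calls in each of these comparisons were kept under every alternative tried. Psat1, an aminotransferase of serine synthesis, had 3872 and 4347 normalized counts on day 0, 1183 and 1219.6 on day 7, 843 and 871 on day 14 and 1191 and 863 on day 21. Every library from day 7 on was below both day 0 libraries, and the day 21 level was 0.247 times that of day 0 (log2 -2.02 ± 0.13, adjusted p = 6.40e-08). Phgdh, the first enzyme of the same pathway, had 1904 and 2003 normalized counts on day 0, 763 and 752 on day 7, 470.1 and 642 on day 14 and 743 and 615 on day 21. It was likewise lower at day 7 (log2 -1.37 ± 0.14, adjusted p = 4.91e-06) and at day 21 (log2 -1.53 ± 0.14, adjusted p = 1.41e-06) than at day 0.

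Asns, asparagine synthetase and a standard ATF4 target, had 3160.0 and 3178 normalized counts on day 0, 1363 and 1415 on day 7, 1078 and 1148 on day 14 and 1345 and 1370.5 on day 21. Its level at day 7 was 0.438 times that of day 0 (log2 -1.19 ± 0.09, adjusted p = 2.62e-07). Chac1, a glutathione-degrading enzyme induced through ATF4, had 645 and 600.1 normalized counts on day 0, 199 and 149.8 on day 7, 208 and 174 on day 14 and 252 and 225 on day 21. The fall at day 7 was the largest of the 38 genes (log2 -1.84 ± 0.16, adjusted p = 8.75e-07), and no later step was called. Trib3, a pseudokinase that restrains ATF4 and CHOP, had 935 and 924 normalized counts on day 0, 417 and 421 on day 7, 325 and 303 on day 14 and 319 and 363 on day 21, with log2 -1.15 ± 0.11, adjusted p = 2.66e-06 at day 7 against day 0.

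The transcription factors of the arm follow. Atf4 had 4483 and 4054 normalized counts on day 0, 3748 and 3837 on day 7, 4789 and 5532 on day 14 and 5003 and 5669.7 on day 21. Between days 7 and 0 it was not called (log2 -0.17 ± 0.11, adjusted p = 0.193), and both day 7 libraries were below both day 0 libraries. It was called higher at day 14 against day 7 (log2 0.44 ± 0.11, adjusted p = 0.00423), a call lost with the length and GC trend removed (log2 0.19, adjusted p = 0.0797). Both later times stood above every library of days 0 and 7. Its call at day 21 against day 0 (log2 0.32 ± 0.11, adjusted p = 0.0195) was lost without replicate 2 of day 0 or of day 21 (adjusted p = 0.163 and 0.121) and with that trend removed (log2 0.13, adjusted p = 0.17). The call at day 21 against day 7 (log2 0.49 ± 0.11, adjusted p = 0.0148) was lost without replicate 2 of day 21 or either day 7 library (adjusted p = 0.0561 to 0.150). ATF4 protein is set mainly by translation, which mRNA levels do not show. Atf5, a related factor also tied to mitochondrial stress, had 14894 and 14318 normalized counts on day 0, 8366 and 8457 on day 7, 8009 and 9307 on day 14 and 8795 and 8577 on day 21, and was lower at day 7 (log2 -0.80 ± 0.10, adjusted p = 2.76e-05) and at day 21 (log2 -0.75 ± 0.10, adjusted p = 3.82e-05) than at day 0.

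Ddit3, which encodes the pro-apoptotic factor CHOP, had 685 and 591 normalized counts on day 0, 766 and 818 on day 7, 1078 and 1296 on day 14 and 842 and 941 on day 21. Every library from day 7 on was above both day 0 libraries, and the day 14 libraries were the highest. Its rise was log2 0.58 ± 0.12 at day 14 against day 7 (adjusted p = 0.00179) and 0.48 ± 0.12 at day 21 against day 0 (adjusted p = 0.00397), the second of which was lost without replicate 2 of day 0 (adjusted p = 0.0605). With the length and GC trend removed, neither was called. Ddit3 then differed at day 14 against day 7 by log2 -0.20, adjusted p = 0.21. At day 21 against day 0 it differed by log2 0.07, adjusted p = 0.643. Its rise at day 7 against day 0 (log2 0.31 ± 0.12, adjusted p = 0.0409) was lost without replicate 2 of day 0 or either day 7 library (adjusted p = 0.0941 to 0.291). Ddit3 was the shortest of the 38 transcripts at 0.969 kb. Its call at day 21 against day 14 (log2 -0.41 ± 0.12, adjusted p = 0.0206) was lost without replicate 2 of day 14 or replicate 1 of day 21 (adjusted p = 0.136 and 0.0997). Its sign changed with that trend removed (log2 0.04, adjusted p = 0.858).

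Ppp1r15a (GADD34), which brings protein phosphatase 1 to eIF2α and so reverses its phosphorylation, had 784 and 694 normalized counts on day 0, 1933 and 2240.4 on day 7, 2083 and 2738 on day 14 and 7827 and 13912 on day 21. Both day 21 libraries were above every earlier library, although they differed from each other by more than any other pair of this gene. Its level was 2.82 times day 0 at day 7 (log2 1.49 ± 0.21, adjusted p = 7.38e-05), did not pass the test at day 14 against day 7 (log2 0.20 ± 0.21, adjusted p = 0.457), and was 4.37 times day 14 at day 21 (log2 2.13 ± 0.21, adjusted p = 7.87e-05). Its day 21 level was 14.1 times that of day 0 (log2 3.82 ± 0.21, adjusted p = 1.43e-08), the widest change of the 38 genes. All 4 of its calls were kept under every alternative tried.

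Sesn2, a sestrin that lowers mTORC1 activity and is induced through ATF4, had 1014 and 914 normalized counts on day 0, 564 and 628 on day 7, 327 and 286 on day 14 and 504 and 581 on day 21. It fell at day 7 against day 0 (log2 -0.69 ± 0.12, adjusted p = 0.000376) and again at day 14 against day 7 (-0.96 ± 0.12, adjusted p = 8.72e-05), and rose at day 21 against day 14 (0.82 ± 0.12, adjusted p = 0.00073). Vldlr, a lipoprotein receptor that is an ATF4 target, had 201 and 173 normalized counts on day 0, 189 and 191 on day 7, 130.3 and 79.5 on day 14 and 161 and 185 on day 21. Its day 14 libraries were the lowest (log2 -0.89 ± 0.21, adjusted p = 0.00335 at day 14 against day 7), and its rise at day 21 against day 14 (log2 0.76 ± 0.21, adjusted p = 0.0146) was lost without replicate 2 of day 14 or of day 21 (adjusted p = 0.113 and 0.102) and with the length and GC trend removed.

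Lower calls of the Atf4 arm at day 14 against day 7, 6 of 11 with all libraries, became 2 without replicate 2 of day 7. The calls of Asns, Psat1, Trib3 and Phgdh were those lost, with adjusted p = 0.0565 to 0.0897. Between day 21 and day 7 the arm had 2 higher calls, Ppp1r15a and Atf4, and 0 lower calls by limma over all libraries, edgeR or DESeq2 (Trib3 was lower at an unadjusted p under 0.05, and was called with the length and GC trend removed), with a median of log2 -0.03.

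**Figure D3:**
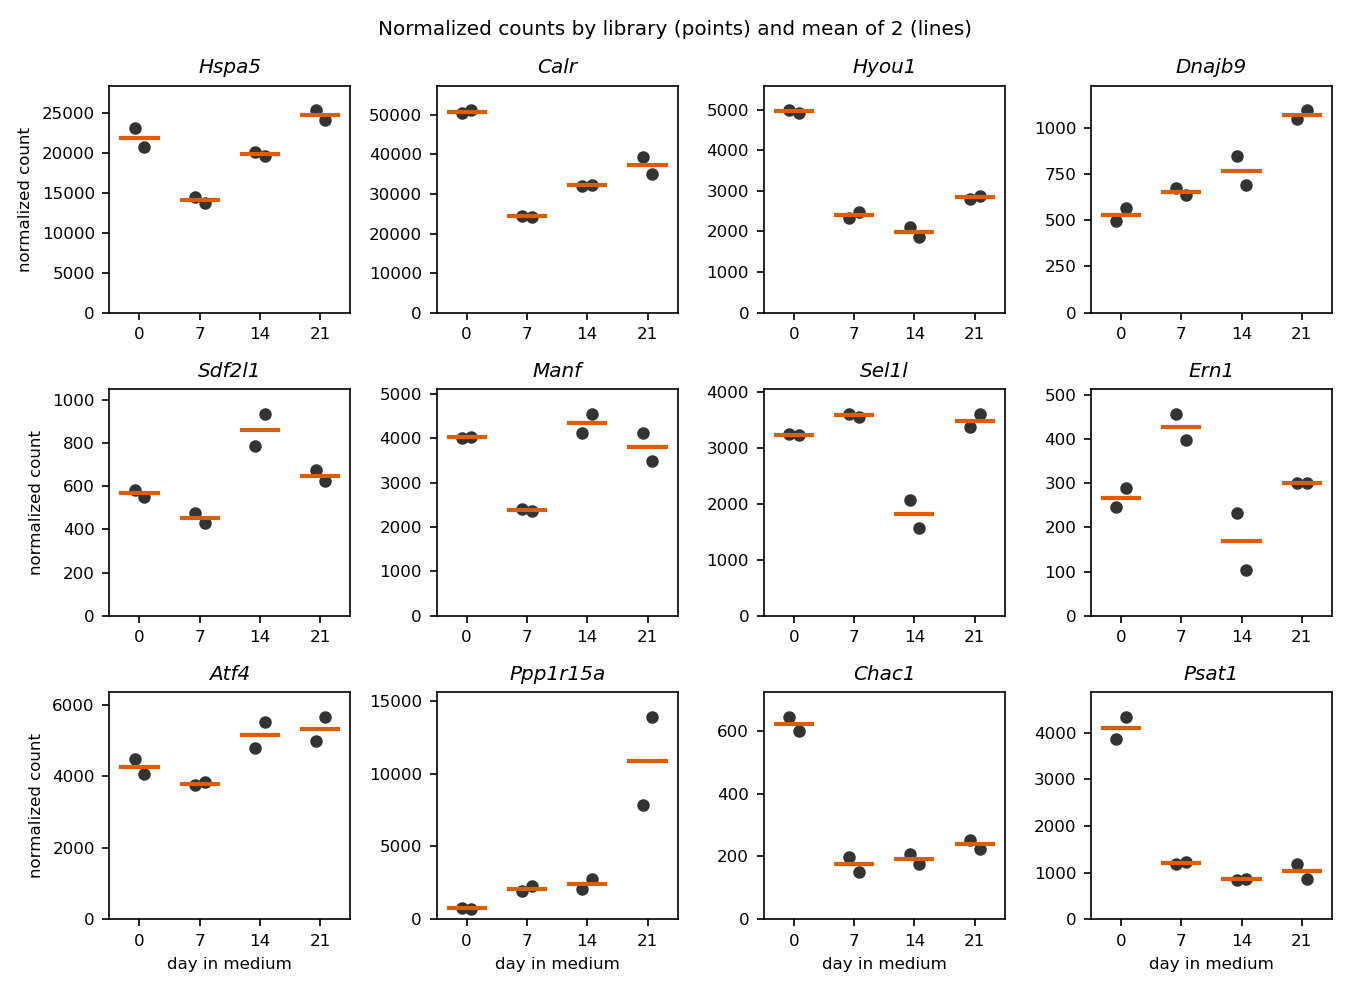
Normalized counts (vertical axes, from 0) of 12 stress response genes at days 0, 7, 14 and 21 (horizontal axes), with 1 point per library and a line at the mean of 2. Ppp1r15a reaches 7827 and 13912 at day 21, whereas Chac1 and Psat1 stay below their day 0 libraries at every later time.

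**Figure D4:**
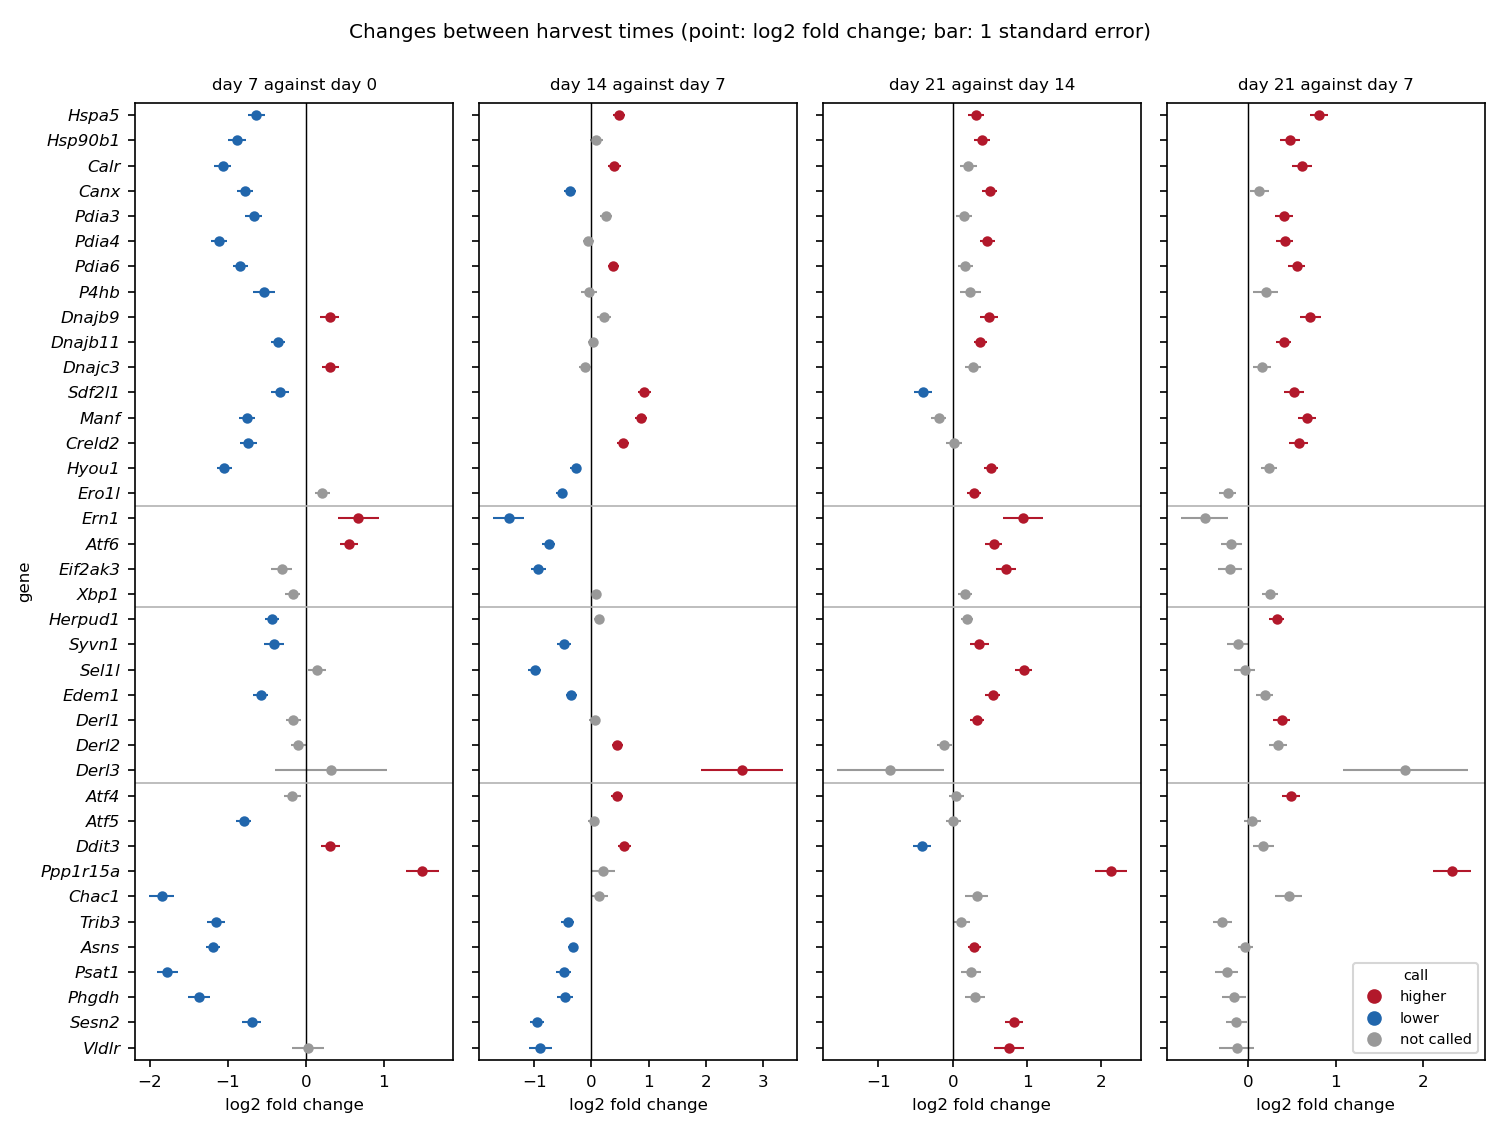
Log2 differences of the 38 genes, grouped by role from chaperones at the top to the Atf4 arm at the bottom, for 4 comparisons, with bars of 1 standard error and colours for the call. Points lie mostly left of 0 at day 7 against day 0 (23 lower calls) and right of 0 at day 21 against day 14 (19 higher calls) and at day 21 against day 7 (15 higher calls).

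Other genes of the same pathways, from lists that did not use the 38 (apart from Atf5 among the mitochondrial genes), were counted in the same fits. Their counts are read against the shares of all genes tested given above, 27.9% lower and 27.5% higher at day 7 against day 0. At day 21 these shares were 3.28% lower and 5.46% higher against day 7, and 29.5% lower and 29.8% higher against day 0. Among 45 further genes of ER folding, glycosylation and translocation, 32 were called lower and 5 higher at day 7 against day 0, with a median of log2 -0.40, and at day 21 against day 7, 11 were called higher. The largest change at day 7 was in Fkbp10, a collagen-folding prolyl isomerase, at 4554 normalized counts at day 7 and 15216 at day 0 (log2 -1.74 ± 0.10). Genes of ER exit and retrieval had 20 lower calls and 1 higher call of 23 tested at day 7 against day 0, with a median of log2 -0.63. The KDEL receptors Kdelr3 (log2 -1.35 ± 0.10) and Kdelr2 (log2 -1.34 ± 0.09), which return escaped chaperones to the ER, led them. The exit genes still had 18 lower calls and 1 higher call on day 21 relative to day 0.

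Of 27 further degradation genes tested, 8 were called higher (29.6%) and 6 lower (22.2%) at day 7 against day 0, near the 27.5% and 27.9% of all genes tested, with a median of log2 0.06. Fbxo2, a glycoprotein-binding F-box protein, was at 87.3 at day 7 and 21.6 at day 0 (log2 1.96 ± 0.21), and the lectin Os9 at 6757 at day 7 and 3658 at day 0 (log2 0.89 ± 0.10). Among 21 further sensors and regulators, 7 were called lower (33.3%) and 3 higher (14.3%) at day 7 against day 0. The largest change was in Crebrf, at 1175 at day 7 and 360.0 at day 0 (log2 1.70 ± 0.11).

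Of 32 further ATF4 targets tested, 21 were called lower and 7 higher at day 7 against day 0, with a median of log2 -0.67, and 19 lower and 8 higher at day 21 against day 0. Of the 20 cytosolic aminoacyl-tRNA synthetases, many of which ATF4 activates, 19 were called lower in each of these comparisons, with medians of log2 -0.82 and -0.71. Cars (log2 -1.51 ± 0.11) and Aars (log2 -1.40 ± 0.09) fell the most at day 7. Not all targets followed, since the glutamine transporter Slc1a5 was at 9206 at day 7 and 2021 at day 0 (log2 2.19 ± 0.12).

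Atf3, a stress-induced factor downstream of ATF4 and also an immediate early gene, also stood highest on day 21, with 31.1 and 24.8 normalized counts on day 0, 67.4 and 62.4 on day 7, 108 and 106 on day 14 and 524 and 752 on day 21. Its rise was log2 3.26 ± 0.20 at day 21 against day 7, and both day 21 libraries were above all others. Of the same 32 targets, 5 were called higher and 1 lower at day 21 against day 7, Cebpb (log2 0.99 ± 0.12) and Gdf15 (log2 0.87 ± 0.19) next after Atf3 in size.

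The other compartments were less uniform. Of 20 cytosolic heat shock genes, 10 were called lower and 3 higher at day 7 against day 0, with a median of log2 -0.23. The small heat shock protein Hspb1 was among the higher calls (log2 1.38 ± 0.11). The inducible Hsp70 genes Hspa1a (log2 1.63 ± 0.13) and Hspa1b (log2 1.31 ± 0.12), whose reads cannot be separated with certainty because the genes are near-identical, rose at day 21 against day 14. At that step 4 of the 20 heat shock genes were called higher and 4 lower (20.0% each), when 20.2% and 14.3% of all genes were. Their summed share went from 0.612% ± 0.0510 of all normalized counts at day 14 to 0.487% ± 0.0569 at day 21. Of 15 mitochondrial chaperones and proteases, 6 were called lower (40.0%) and 2 higher (13.3%) at day 7 against day 0, and at day 14 against day 7, 5 were called higher (33.3%), when 25.0% of all genes were.

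Collagens and other matrix proteins are the main cargo of these chaperones in fibroblasts. The summed level of 22 secreted matrix and matrix-modifying genes was 9.53% ± 0.0593 of all normalized counts at day 0, 6.87% ± 0.0983 at day 7, 3.86% ± 0.509 at day 14 and 5.61% ± 0.668 at day 21 (SD, n = 2 each). At day 7 against day 0, 11 of the 22 were called lower and 6 higher (27.3%), when 27.9% and 27.5% of all genes were. At day 14 against day 7, 18 were called lower (81.8%) and 2 higher (9.09%), when 27.0% and 25.0% of all genes were. At day 21 against day 14, 17 were called higher (77.3%), when 20.2% of all genes were. Col1a1, the main chain of fibrillar collagen, had 242711 and 257184 normalized counts on day 0, 64015 and 73189.8 on day 7, 24910.2 and 19925 on day 14 and 44351 and 63744 on day 21. The summed level of these 22 genes was lowest at day 14. It includes genes that are not cargo, Serpinh1, P4ha1, P4ha2, Plod1 and Plod2 among them. Of the 16 chaperones, 9 had their lowest mean at day 7, Hspa5 and Calr among them. Another 5, Canx, Pdia4, P4hb, Hyou1 and Ero1l, had it at day 14, and 2 at day 0. The part of the cargo in the levels of the chaperones was not tested.

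Macrophage markers moved in the same libraries. Of 19 markers with a row, 17 were called higher at day 7 against day 0 (89.5%) and 10 at day 14 against day 7 (52.6%), when 27.5% and 25.0% of all genes were. At day 21, 3 were called lower against day 14 (15.8%) and 5 higher against day 7 (26.3%), when 14.3% and 5.46% of all genes were. The summed level of the macrophage markers was 1366 to 1484 normalized counts at day 0, 11162 to 13825 at day 7, 22918 to 42618 at day 14 and 22949 to 23650 at day 21. Lyz2 made up most of it, with 647 and 715 normalized counts on day 0, 9187 and 7306 on day 7, 16975 and 31689 on day 14 and 16693 and 15255 on day 21, and its reads may include those of the near-identical Lyz1. Their share of all normalized counts was highest at day 14, with a mean of 0.188%. Their part in the changes of the stress genes was not tested. The 12 fibroblast markers summed to 4.25% of all normalized counts at day 0, 2.89% at day 7, 2.21% at day 14 and 2.82% at day 21. At day 7 against day 0, 5 of the 12 were called higher (41.7%) and 3 lower (25.0%), when 27.5% and 27.9% of all genes were. Other cell types were followed in the same way. Of 8 plasma cell and B cell markers with a row, 1 passed the filter, Sdc1, which fibroblasts also express. The summed level of 10 adipocyte markers was 1309 to 1450 normalized counts at day 0, 4233 to 4366 at day 7, 7916 to 9408 at day 14 and 4612 to 4897 at day 21, most of it Fabp4 and Pnpla2, and all 7 tested were called higher at day 21 against day 0. The 8 endothelial markers summed to 679 to 703 at day 0, 584 to 585 at day 7, 316 to 412 at day 14 and 301 to 449 at day 21. Of 10 cardiomyocyte markers Tnnt2 made up nearly all of the sum, 1137 to 1213 at day 0, 11095 to 11752 at day 7, 22458 to 28813 at day 14 and 5869 to 10597 at day 21, with Myh6 at 0 reads throughout. Of the 3 cardiomyocyte markers tested, 2 were called higher at day 7 and 3 at day 21 against day 0, when 27.5% and 29.8% of all genes were. Against day 14, 1 was called lower at day 21, when 14.3% of all genes were. The 10 osteoblast markers, mostly Spp1, summed to 2887 to 3220 at day 0, 5477 to 6468 at day 7, 10033 to 11479 at day 14 and 6516 to 9189.7 at day 21. Of the 5 osteoblast markers tested, 3 were called higher (60.0%) and 0 lower at day 21 against day 0. The shares of all genes there were 29.8% and 29.5%. The part of these other cell types in the stress genes' changes was likewise not tested.

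Transcript length also went with some of these changes. Over 13421 genes with a known length, the log2 difference changed by -0.37 for each doubling of length at day 14 against day 7 and by 0.24 at day 21 against day 14, but by only -0.01 at day 7 against day 0. The slope was -0.13 at day 21 against day 7 and -0.14 at day 21 against day 0. The 10 genes called higher at day 14 against day 7 had a median length of 2.10 kb and the 15 called lower one of 4.42 kb. The 19 called higher at day 21 against day 14 had a median of 4.08 kb.

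With the trend on length and GC content removed, 5 of the 10 higher calls at day 14 against day 7 were kept, those of Hspa5, Sdf2l1, Manf, Derl2 and Derl3. The other 5, those of Calr, Pdia6, Creld2, Atf4 and Ddit3, were lost. Of the 15 lower calls there, 12 were kept, all 3 sensors among them, and those of Hyou1, Syvn1 and Edem1 were lost. Pdia4 was newly called lower, which makes 13. Some kept differences were much smaller, with Ern1 at log2 -0.93, adjusted p = 0.00903, Sel1l at log2 -0.57, adjusted p = 0.000243 and Vldlr at log2 -0.44, adjusted p = 0.0437. That of Asns was larger, at log2 -0.71, adjusted p = 7.77e-05. For day 21 against day 14, 14 of 19 higher calls and 0 of 2 lower calls were kept, and the higher calls of Ern1, Atf6, Ero1l, Syvn1 and Vldlr were lost. Another 6, Calr, Pdia6, Creld2, Xbp1, Herpud1 and Phgdh, were newly called higher, which makes 20. The kept rises of Hyou1 (log2 0.26, adjusted p = 0.0177) and Edem1 (log2 0.25, adjusted p = 0.028) were smaller.

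All 23 lower calls at day 7 against day 0 were kept, Dnajb9 and Ddit3 lost their higher calls, and Eif2ak3, Xbp1, Derl1 and Atf4 were newly called lower, which makes 27. Of the 15 higher calls at day 21 against day 7, 11 were kept, Hyou1 and Edem1 were newly called higher and Trib3 lower. At day 21 against day 0 all 16 lower calls were kept, and Pdia3, P4hb, Manf, Creld2 and Herpud1 were newly called lower, which makes 21, while the higher calls of Atf4 and Ddit3 were lost and Sel1l was newly called higher. The part of length in the deposited differences was not tested beyond this removal.

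**Figure D5:**
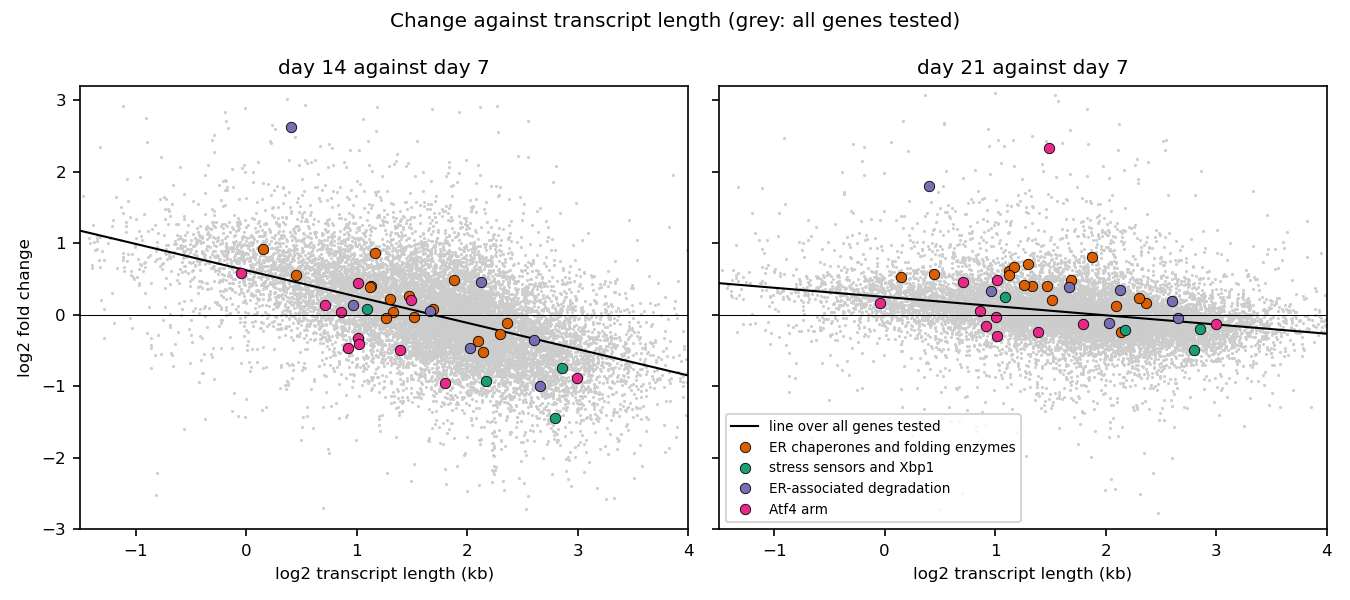
Log2 difference (vertical axes) against log2 transcript length in kilobases (horizontal axes) at day 14 against day 7 and at day 21 against day 7, with all genes tested in grey, the stress genes coloured by role and the line fitted over all genes. Genes beyond the axes are not drawn. The line falls by 0.37 per doubling of length on the left and by 0.13 on the right, and Ern1, Atf6 and Eif2ak3, with long transcripts, lie toward its lower end.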

How the data were processed

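Expression was measured by RNA sequencing of total RNA, extracted with the RNeasy Plus Mini Kit per the labels' protocols, in 8 libraries, 2 each at days 0, 7, 14 and 21. TopHat2 2.0.11, HTSeq 0.6.1, DESeq and the mouse build mm9 are named in the submitters' processing notes, without their settings; which annotation and strand setting were used is not given in the sources used here. The deposited table holds a signal per gene symbol, which the authors made by dividing read counts by 1 size factor per library, as its values show: 100% of them came out as whole reads, within a tolerance of 0.01, when divided by the value of 1 read in each library. Because the size factors place the libraries on a common scale, the values are called normalized counts.

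The 38 genes and the other lists were chosen with earlier results of these data known. Values in every library are given, by rule, for the genes with the 2 largest called rises and the 2 largest called falls in each role and comparison and for those with the widest range over the 4 times, and up to 3 genes of each other list are named by size of change. Xbp1, Asns, Trib3, Atf5, Col1a1, Lyz2 and Hspa1b were added outside that rule after their values were seen. Of 24015 symbols, 13527 reached 10 normalized counts in 2 or more libraries and were tested on log2(value + 1) with limma 3.58.1 (trended variance, all 8 libraries in 1 fit, 4 residual and 8.16 prior degrees of freedom), with Benjamini-Hochberg adjustment over all genes tested and a call at 0.05. All adjusted p-values in the text are from this fit unless another tool, or one of the alternatives below, is named with them. Comparisons were day 7 against day 0, day 14 against day 7, day 21 against day 14, day 21 against day 7 and day 21 against day 0. Alternatives were other pseudocounts and filters, TMM scaling, edgeR 4.0.16 and DESeq2 1.42.0 on the recovered reads, a replicate block, fits of only the times compared, removal of a trend on length and GC content, and each library left out in turn; with a library left out, its lone partner was assumed to vary like the other times. The scripts ran in R 4.3.3 and Python 3.11.15 and were tested on simulated data.

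Transcript lengths, from the longest transcript of each symbol in GENCODE M21, matched 98.4% of symbols; that annotation is on another build than mm9, so no coordinates were taken from it. Promoter windows are RefSeq's, on GRCm38.p6, and were matched by symbol only. Replicate libraries differed by more than sampling noise (chi-square per degree of freedom 3.06 to 15.9). Each was counted as a sample, although that spread does not show that the libraries had separate sources. Counting intervals were not used, since the spread between libraries was larger.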

Additional observations from a re-analysis of the deposited data

How the results depend on the processing

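Of the 113 calls made over the 38 genes and 5 comparisons, 62 were kept under each of the 18 alternatives that tested the gene, and 51 were lost under at least 1. The filter at 50 normalized counts did not admit Derl3, so its call at day 14 against day 7, counted as kept, was not tried there. By comparison, 22 of 29 were kept at day 7 against day 0, 12 of 25 at day 14 against day 7, 8 of 21 at day 21 against day 14, 3 of 15 at day 21 against day 7 and 17 of 23 at day 21 against day 0. With the length and GC trend removed, the higher calls at day 14 against day 7 became 5, the lower calls at day 21 against day 14 became 0 and those at day 21 against day 7 became 1. The same removal turned the direction of Ddit3 (log2 -0.20), Edem1 (0.025) and Hyou1 (0.081) at day 14 against day 7 and of Ddit3 (0.036) at day 21 against day 14. Without a filter the higher calls at day 7 against day 0 became 3 and the calls over all genes at day 21 against day 7 became 739. A fit of only the times compared gave 12 higher calls, 0 lower calls and 2635 calls over all genes at day 21 against day 14, and 1 lower call at day 21 against day 7. The cause of these moves was not tested.

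Leaving out each library in turn gave 2 to 7 higher calls at day 7 against day 0, 8 to 15 lower calls at day 14 against day 7, 12 to 19 higher and 0 to 2 lower calls at day 21 against day 14, 3 to 17 higher and 0 to 1 lower calls at day 21 against day 7, and 3 to 9 higher calls at day 21 against day 0. Over all genes it gave 2303 to 5750 calls at day 21 against day 14 and 262 to 2173 at day 21 against day 7. With the replicate number as a block, the 6 higher calls at day 7 against day 0 became 4. Deviations of libraries with the same number correlated at -0.036 to 0.074 between times, which showed no pairing but cannot exclude a shared source. Derl3 rests on fewer than 20 normalized counts in any library, and 2 libraries a time limit every standard error.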
